A study of Mus musculus with 14 samples.

Results

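Fibroblasts of the meninges, the membranes around the brain, express 10 genes that were followed here mouse by mouse in hippocampal RNA: *Ogn*, *Dcn*, *Lum*, *Fmod*, *Mgp*, *Slc13a4*, *Slc6a13*, *Slc22a6*, *Aldh1a2* and *Igf2*. They were chosen by name as genes known from meningeal fibroblasts, with earlier results of these data known. They are 10 of the 24421 genes in the deposited count table. All 10 were among the 14897 genes with enough counts to be tested. The series holds 1 library from each of 7 naive mice labeled LPAR2-/- and 7 naive wild-type (WT) mice, all male and of the strain label 129.C57Bl6. LPAR2 is a receptor for lysophosphatidic acid, and the knockout, which is present in the whole body, removes part of an *Lpar2* exon. Knockouts and controls came from separate colonies, the former bred as homozygotes and the latter of mixed background, so that genotype and colony cannot be told apart. Neither the age nor the exact piece of tissue is known. The labels put the mice at 10 to 12 weeks and the tissue as hippocampus, while middle-aged to aged is the wording of the deposited design. The paper names the dentate gyrus in its results and hippocampi in its sequencing methods.

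The meninges consist of layers of fibroblasts, called dura, arachnoid and pia, and the pia follows the brain surface into the hippocampal fissure. Fibroblasts of the arachnoid and pia secrete collagens and small leucine-rich proteoglycans, carry transporters that exchange solutes between blood, cerebrospinal fluid and brain, and make retinoic acid and growth factors. Neurons and glia of the hippocampus express most of these genes weakly, and transcripts of this kind in a piece of brain are commonly read as a sign of meningeal tissue. In such bulk samples, fewer cells of a type and less RNA per cell cannot be told apart.

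Library totals were between 15434620 and 23258949 counted reads, and values per mouse are CPM, counts scaled to the size of the library after TMM normalization. *Lpar2* itself was at 8.20 to 12.3 CPM in the libraries labeled LPAR2-/- and at 1.51 to 3.23 CPM in WT libraries (log2 fold change 2.01, edgeR adjusted p = 8.22e-07), which goes against the label, although the table sums reads over the whole gene and does not show which exons they came from. All directions below therefore refer to the label. The dissected tissue carried hippocampal markers in every library. The summed level of 10 genes of hippocampal neurons was 564 to 656 CPM, and that of *Prox1*, which marks granule cells of the dentate gyrus, 33.5 to 55.1 CPM. Some genes of this list varied more, *Fibcd1* between 416 and 3383 counts per library and *Neurod6* between 795 and 3941. The sum alone therefore does not show that the pieces were alike.

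The promoters of 7 of the 10 genes were found in the RefSeq promoter table (build GRCm38.p6, 300 bases each, from 250 before the start of transcription to 50 after it), 12 windows in all, since *Slc6a13* and *Igf2* have several starts. Of these, 4 are printed: *Slc22a6*, *Slc13a4* and *Aldh1a2*, from the genes that go together most closely across mice, and *Ogn* from the proteoglycans. *Slc22a6* is on the plus strand at chr19:8617746-8618045, *Slc13a4* on the minus strand at chr6:35308077-35308376, *Aldh1a2* on the plus strand at chr9:71215539-71215838 and *Ogn* on the plus strand at chr13:49607765-49608064. Capitals mark matches, on either strand, to the letters AGGTGT (T-box factors), GGAATG (TEAD factors), TATAAA (the core element bound by the TATA-binding protein) and GGGCGG (Sp factors).
Slc22a6: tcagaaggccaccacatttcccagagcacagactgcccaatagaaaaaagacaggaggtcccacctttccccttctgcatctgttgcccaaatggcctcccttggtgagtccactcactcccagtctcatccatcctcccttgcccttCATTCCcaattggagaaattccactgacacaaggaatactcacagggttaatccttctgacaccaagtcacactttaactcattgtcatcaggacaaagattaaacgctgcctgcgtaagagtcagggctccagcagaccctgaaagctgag
Slc13a4: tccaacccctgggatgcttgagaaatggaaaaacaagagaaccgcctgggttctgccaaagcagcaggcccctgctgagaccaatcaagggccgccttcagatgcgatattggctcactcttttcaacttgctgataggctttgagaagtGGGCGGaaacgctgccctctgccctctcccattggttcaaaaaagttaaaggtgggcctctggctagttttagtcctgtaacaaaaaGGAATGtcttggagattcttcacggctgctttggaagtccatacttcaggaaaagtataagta
Aldh1a2: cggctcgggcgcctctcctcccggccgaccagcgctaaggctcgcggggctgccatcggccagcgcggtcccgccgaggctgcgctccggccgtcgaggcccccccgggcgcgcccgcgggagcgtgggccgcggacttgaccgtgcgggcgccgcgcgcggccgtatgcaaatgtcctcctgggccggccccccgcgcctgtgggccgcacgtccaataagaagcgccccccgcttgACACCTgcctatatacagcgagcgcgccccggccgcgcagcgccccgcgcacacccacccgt
Ogn: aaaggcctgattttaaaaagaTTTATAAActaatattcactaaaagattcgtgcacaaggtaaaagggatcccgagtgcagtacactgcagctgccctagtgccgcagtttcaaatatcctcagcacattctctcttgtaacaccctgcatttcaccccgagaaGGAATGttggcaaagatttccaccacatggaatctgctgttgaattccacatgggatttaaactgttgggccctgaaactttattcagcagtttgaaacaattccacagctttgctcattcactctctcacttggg

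The window of *Aldh1a2* had 78.0% G or C and 50 CG dinucleotides, against a median of 52.7% and 7 over the 32851 promoters of this length in the table, whereas *Slc22a6* had 50% and 2, *Slc13a4* 48.7% and 6, and *Ogn* 42.3% and 4. GGAATG was found in 7 of the 12 windows, of *Igf2*, *Ogn*, *Slc13a4*, *Slc22a6* and *Slc6a13*, and in 14.7% of all promoters. GGGCGG was found in 4 windows (35.7% of all promoters), AGGTGT in 1 (13.7%), TATAAA in 1 (13.6%) and TGTTTA, the letters of forkhead factors, in 0 (13.4%). In the window of *Ogn* both matches to TATAAA overlap, at positions −229 and −227 from the start of transcription. A match says only that the letters are there.

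By the coordinates of the count table (mm10, whole gene, all exons counted), the proteoglycan genes are *Ogn* at chr13:49608071-49624500, *Dcn* at chr10:97479500-97518162, *Lum* at chr10:97565501-97572703 and *Fmod* at chr1:134037515-134048277. The carriers are *Slc13a4* at chr6:35267953-35308126, *Slc6a13* at chr6:121300296-121337718 and *Slc22a6* at chr19:8617996-8628299. The remaining genes are *Mgp* at chr6:136872435-136875805, *Aldh1a2* at chr9:71215789-71296243 and *Igf2* at chr7:142650768-142661035. *Slc13a4*, *Slc6a13* and *Mgp* share a chromosome without being next to each other.

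The proteoglycans *Ogn*, *Dcn*, *Lum* and *Fmod* code for secreted proteins that bind collagen and set the spacing and thickness of its fibrils. *Lum* (lumican) ranged from 8.27 to 13.4 CPM with a median of 10.6 in mice labeled LPAR2-/- and from 5.72 to 9.35 CPM with a median of 7.37 in WT mice. Of the 7 mice labeled LPAR2-/-, 6 lay above the highest WT mouse, and the groups overlapped through LPAR2-/- mouse 3. *Lum* was the 1 gene of the 10 that rose past the threshold, an adjusted p under 0.05 (log2 fold change 0.54 ± 0.117 SE, edgeR adjusted p = 0.0132, exact two-sided permutation p = 0.00233), against 3.32% of all genes tested that were called higher and 6.77% called in either direction.

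*Fmod* (fibromodulin) had the largest fitted difference of the 10 genes and the widest spread. It was at 31.6, 14.7, 4.98, 50.8, 64.7, 55.6 and 19.3 CPM in LPAR2-/- mice 1 to 7 and at 7.23, 5.10, 8.89, 41.1, 2.05, 8.12 and 4.84 CPM in WT mice 1 to 7. The highest WT mouse, number 4, lay among the upper mice labeled LPAR2-/-, and the lowest of these, number 3, lay among the WT mice. The log2 fold change was 1.64 ± 0.643 SE, which did not pass (edgeR adjusted p = 0.149). Without WT mouse 4 it was 2.52 (adjusted p = 0.0239).

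*Ogn* (osteoglycin) varied less from mouse to mouse than 8 of the other 9 genes. It ranged from 23.7 to 50.7 CPM with a median of 36.2 in mice labeled LPAR2-/- and from 18.1 to 39.2 CPM with a median of 24.5 in WT mice, with 3 of 7 mice labeled LPAR2-/- above the highest WT mouse. Its log2 fold change was 0.49 ± 0.196 SE (edgeR adjusted p = 0.159).

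*Dcn* (decorin), which also binds growth factors of the TGF-beta family, was set by a single animal in the WT group. It was at 84.9 CPM in WT mouse 2 and at 8.46 to 25.9 CPM in the other WT mice, with a median of 11.3 over all 7. Mice labeled LPAR2-/- ranged from 7.54 to 48.7 CPM with a median of 19.1. None of these mice reached WT mouse 2, yet 6 of 7 lay above the WT median. The means were 23.7 ± 14.8 (SD, n = 7) and 24.2 ± 27.5 CPM (SD, n = 7), and the log2 fold change of −0.04 ± 0.564 SE (edgeR adjusted p = 0.980) became 0.74 without WT mouse 2 (adjusted p = 0.369). *Dcn* and *Lum* are neighbors on the plus strand of chromosome 10, separated by 47338 bases (mm10), and WT mouse 2 stood at 7.37 CPM for *Lum*, which was the WT median.

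**Figure D1:**
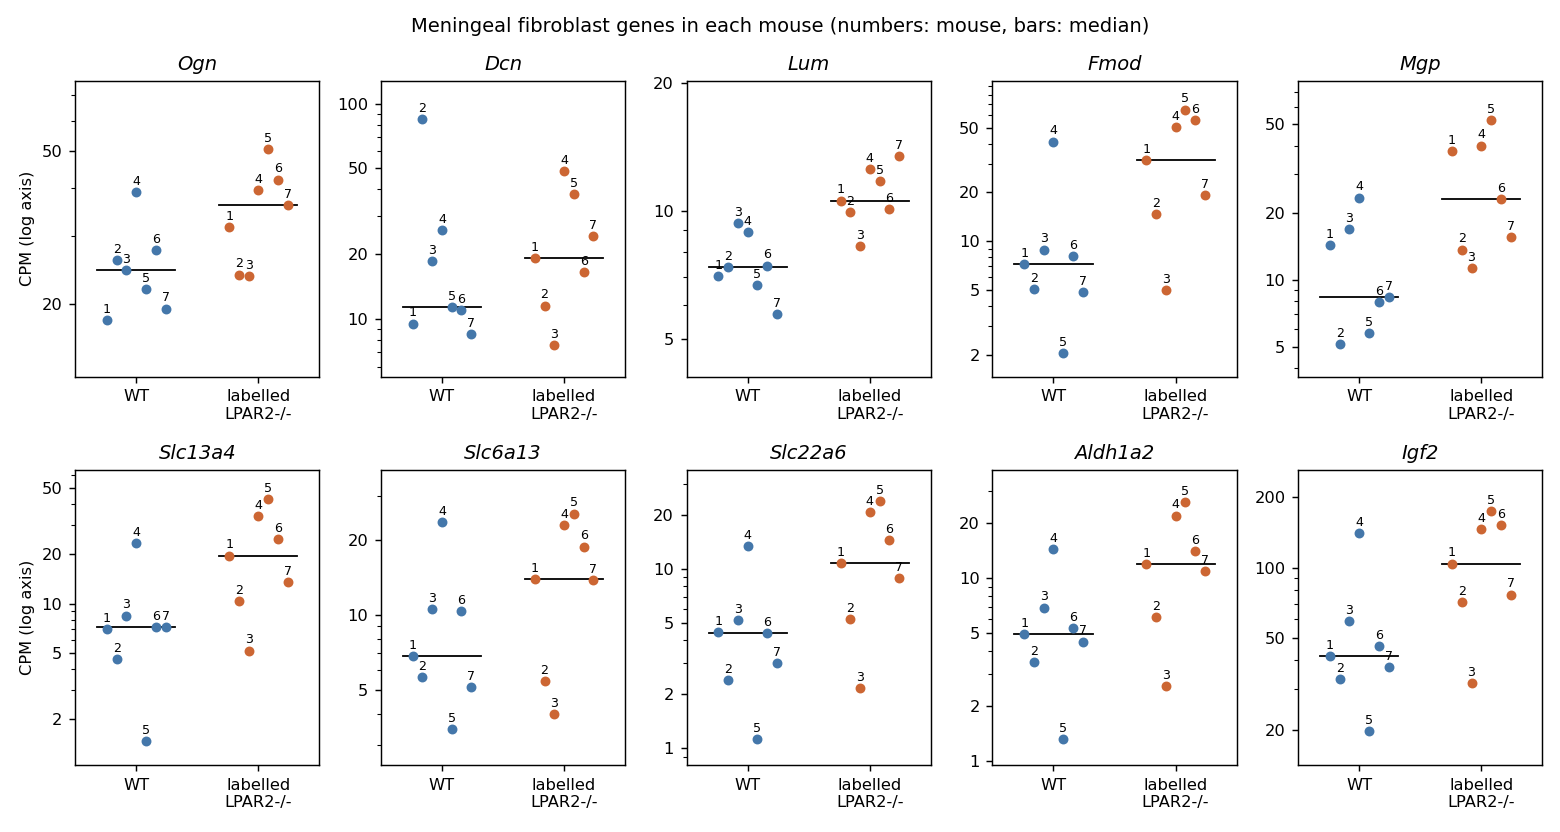
CPM of each of the 10 genes in each mouse on log axes, WT in blue and mice labeled LPAR2-/- in orange, with the mouse number above each point and the median of 7 mice as a bar. WT mouse 4 stands above the other WT mice in 8 of the 10 panels, WT mouse 2 in that of *Dcn*, and LPAR2-/- mouse 3 is the lowest of its group in all 10.

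*Mgp* codes for matrix Gla protein, which keeps vessels and cartilage from calcifying. It ranged from 11.3 to 52.2 CPM with a median of 23.1 in mice labeled LPAR2-/- and from 5.14 to 23.4 CPM with a median of 8.34 in WT mice. All 7 mice labeled LPAR2-/- lay above the WT median and 3 above the highest WT mouse. The log2 fold change was 1.24 ± 0.421 SE (edgeR adjusted p = 0.0981, exact two-sided permutation p = 0.0210).

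The transporters *Slc13a4*, *Slc6a13* and *Slc22a6* carry sulfate with sodium, GABA and taurine, and organic anions, in this order. *Slc13a4* was at 19.6, 10.4, 5.20, 33.9, 43.3, 24.6 and 13.5 CPM in LPAR2-/- mice 1 to 7 and at 7.04, 4.64, 8.48, 23.3, 1.47, 7.19 and 7.23 CPM in WT mice 1 to 7. *Slc22a6* was at 10.8, 5.28, 2.17, 20.8, 23.9, 14.5 and 8.90 CPM in LPAR2-/- mice 1 to 7 and at 4.44, 2.41, 5.18, 13.4, 1.12, 4.40 and 2.97 CPM in WT mice 1 to 7. *Slc6a13* ranged from 3.98 to 25.5 CPM in mice labeled LPAR2-/- and from 3.47 to 23.6 CPM in WT mice. All 3 transporters put the mice labeled LPAR2-/- in the same order, 5, 4, 6, 1, 7, 2 and 3 from high to low, and had WT mouse 4 at the top and WT mouse 5 at the bottom of the WT group. The groups overlapped for each of them. The log2 fold changes were 1.34 ± 0.522 SE for *Slc13a4* (edgeR adjusted p = 0.144), 1.34 ± 0.539 SE for *Slc22a6* (0.158) and 0.67 ± 0.468 SE for *Slc6a13* (0.428). Of these, *Slc13a4* passed without WT mouse 4 (1.85, adjusted p = 0.0482).

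*Aldh1a2* codes for the enzyme that makes retinoic acid from retinaldehyde. It was at 11.9, 6.15, 2.56, 22.0, 26.2, 14.1 and 10.9 CPM in LPAR2-/- mice 1 to 7 and at 4.96, 3.46, 6.91, 14.5, 1.32, 5.33 and 4.49 CPM in WT mice 1 to 7. It ordered the mice labeled LPAR2-/- as the transporters did, and its log2 fold change was 1.20 ± 0.503 SE (edgeR adjusted p = 0.177).

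*Igf2*, the gene of the growth factor IGF2, ranged from 31.8 to 175 CPM with a median of 104 in mice labeled LPAR2-/- and from 19.8 to 140.3 CPM with a median of 41.5 in WT mice. The second highest WT mouse was at 59.0 CPM, and 6 of 7 mice labeled LPAR2-/- lay above the WT median. The log2 fold change was 1.00 ± 0.430 SE (edgeR adjusted p = 0.185) and 1.45 without WT mouse 4 (adjusted p = 0.0408).

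Seen together, 9 of the 10 genes had a higher fitted mean in mice labeled LPAR2-/-, the median of the 10 log2 fold changes being 1.10, against 0.0029 over all genes tested. An unadjusted edgeR p under 0.05 was reached by 8 of the 10 in the higher direction, against 11.3% of all genes tested. This count was 2 without LPAR2-/- mouse 5, 4 without LPAR2-/- mouse 6 and 5 without LPAR2-/- mouse 4, WT mouse 1 or WT mouse 7. The groups were free of overlap for 0 of the 10 genes, against 1.77% of all genes tested. Two-sided exact permutation tests of 7 against 7 mice, which can reach a p of 0.000583, gave values between 0.00233 (*Lum*) and 0.694 (*Dcn*), with 6 of 10 under 0.05 before any adjustment. The share of all genes under 0.05 in this permutation test was not computed, so the 6 cannot be set against it. Since the genes go up and down together in the same mice, as shown next, these counts are not 10 separate observations. The 10 genes were also chosen with earlier results of these data known, so the shares of all genes beside them make no independent test. Nothing in the labels says from which litter or day a mouse came.

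**Figure D2:**
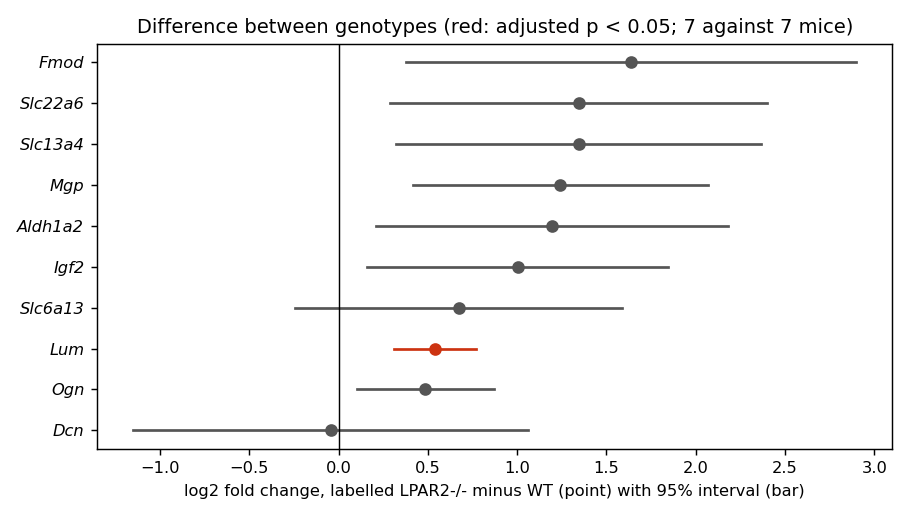
Log2 fold change of each gene, mice labeled LPAR2-/- minus WT, fitted by edgeR over 7 against 7 mice, with its 95% interval before any adjustment. The interval of *Lum*, in red, is short and its adjusted p is 0.0132, whereas *Fmod* has the largest value, 1.64, with a wide interval. The intervals of *Dcn* and *Slc6a13* span both directions.

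The size of the spread set most of these genes apart from the transcriptome. The SD of log2 CPM among WT mice was 0.82 for *Mgp*, 0.87 for *Igf2*, 0.89 for *Slc6a13*, 1.01 for *Aldh1a2*, 1.06 for *Slc22a6*, 1.16 for *Slc13a4*, 1.17 for *Dcn* and 1.29 for *Fmod*, against a median of 0.13 over all genes tested. At least 98.97% of all genes tested had a lower SD than any of these 8 in either genotype. *Ogn* (0.37) and *Lum* (0.24) varied less, and 90.3% and 77.7% of the genes had a lower SD among WT mice. Counting error was small beside this except for *Lum*. In WT mice it accounted for a coefficient of variation of 13.1% for *Slc22a6*, the gene with the fewest reads (23 to 482 per library over all 14), whose measured coefficient of variation was 82.9%. For *Lum* it was 8.43%, against a measured 16.7%. Between the lowest and the highest of the 14 mice, *Fmod* differed 31.5-fold, *Slc13a4* 29.5-fold, *Slc22a6* 21.3-fold, *Aldh1a2* 19.9-fold, *Dcn* 11.3-fold, *Mgp* 10.1-fold, *Igf2* 8.86-fold, *Slc6a13* 7.36-fold, *Ogn* 2.79-fold and *Lum* 2.35-fold.

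Per length, in CPM per kilobase of counted exon, the mean level in WT mice was highest for *Mgp* with 19.5 ± 11.3 (SD, n = 7), followed by *Igf2* with 12.7 ± 9.42, *Dcn* with 11.6 ± 13.2 and *Ogn* with 9.94 ± 2.76. *Slc6a13* with 4.35 ± 3.17, *Fmod* with 3.86 ± 4.71 and *Lum* with 3.62 ± 0.604 came next. The lowest levels were those of *Aldh1a2* with 2.59 ± 1.85, *Slc13a4* with 2.47 ± 2.02 and *Slc22a6* with 1.20 ± 0.998. Neighbors in this order differed by less than the larger SD of each pair, except *Ogn* and *Slc6a13*, between which the order has its step. In mice labeled LPAR2-/- *Mgp* with 46.2 ± 26.3 and *Igf2* with 25.5 ± 12.2 were again at the top and *Slc22a6* with 3.06 ± 1.97 at the bottom.

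The design allows the question whether the 10 genes rise and fall together from mouse to mouse. Within each genotype the log2 CPM of every pair of genes was correlated over 7 mice, 45 pairs per genotype and 90 tests in all, with exact permutation p-values over all orders of the mice and Benjamini-Hochberg adjustment over the 90. Among mice labeled LPAR2-/- all 45 pairs were positive, with a median Pearson's r of 0.90 (0.49 to 0.998), and 36 passed an adjusted p of 0.05. Spearman's rho had a median of 0.93 and 29 pairs passed. Without the 2 mice farthest from the median of the first gene of each pair, the median r was 0.79. Among WT mice 44 of 45 pairs were positive, with a median r of 0.75 (−0.15 to 0.99), and 21 passed. Spearman's rho had a median of 0.79 in WT mice and 19 pairs passed, and the median r without the 2 farthest mice was 0.70.

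The 21 pairs that passed in WT mice are all pairs among 7 genes, *Fmod*, *Mgp*, *Slc13a4*, *Slc6a13*, *Slc22a6*, *Aldh1a2* and *Igf2*. The closest pair was *Fmod* and *Igf2* in mice labeled LPAR2-/- with r = 0.998 (exact permutation p = 0.000198, the smallest obtained, adjusted p = 0.00223), and in WT mice it had r = 0.991. A pair as close in WT mice was *Slc13a4* and *Aldh1a2*, the sulfate carrier and the retinoic acid enzyme, with r = 0.993 in WT mice and 0.98 in mice labeled LPAR2-/-. *Mgp* was the loosest of the 7, with r between 0.80 and 0.87 to the other 6 in WT mice. With the genotype means removed, 36 of 45 pairs passed over 14 mice, with a median r of 0.82 (0.29 to 0.99, 100000 permutations).

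*Ogn*, *Dcn* and *Lum*, the proteoglycans other than *Fmod*, had 0 of their pairs past the threshold in WT mice, against 7, 9 and 1 of 9 in mice labeled LPAR2-/-. *Ogn* had an r of 0.73 with the mean of the other 9 genes in WT mice and 0.91 in mice labeled LPAR2-/-, and *Lum* 0.72 and 0.70, close to the 0.76 of *Mgp* in WT mice. *Dcn* had 0.20 in WT mice and 0.91 in mice labeled LPAR2-/-, and without WT mouse 2 its value in WT mice was 0.81. The difference between the genotypes in these correlations was not tested.

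**Figure D3:**
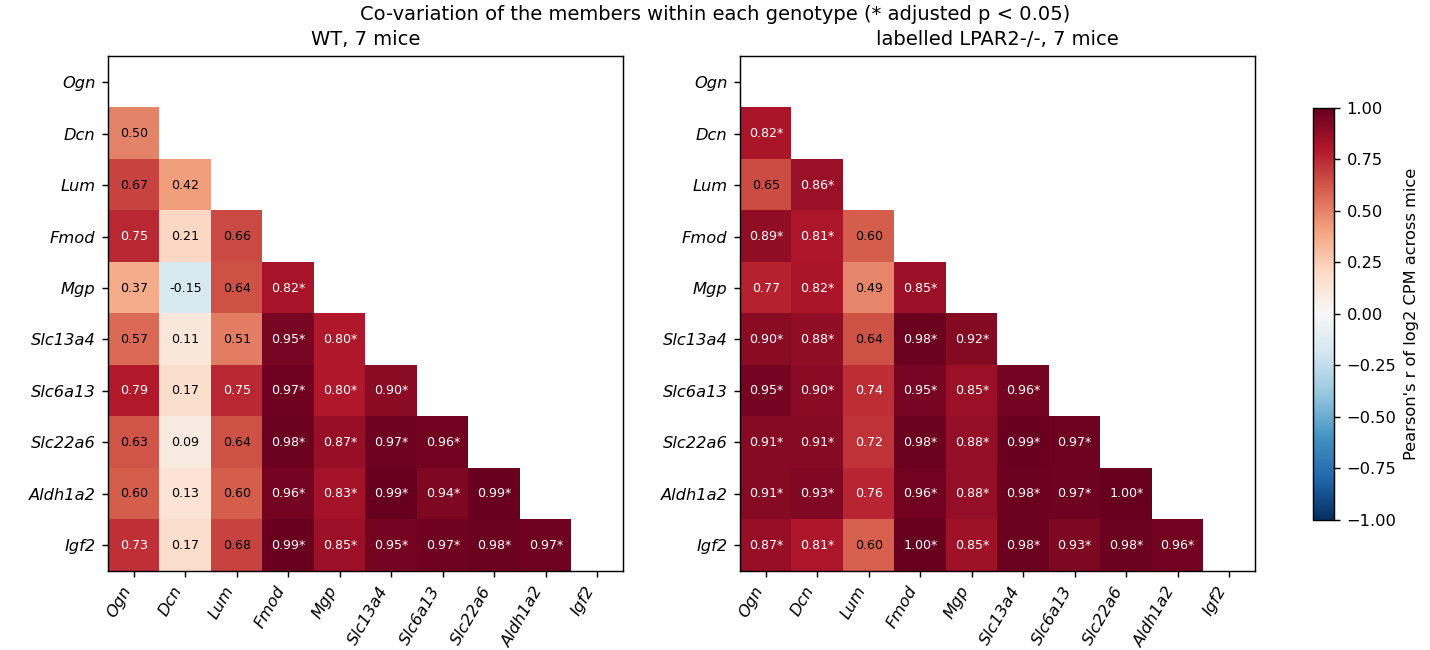
Pearson's r of log2 CPM for each pair of the 10 genes across 7 WT mice (left) and 7 mice labeled LPAR2-/- (right), with an asterisk where the adjusted p is under 0.05. The block of 7 genes from *Fmod* to *Igf2* is filled in both panels, and the column of *Dcn* is pale in WT mice, down to −0.15, and dark in mice labeled LPAR2-/-.

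Single mice carry much of this. LPAR2-/- mouse 3 was the lowest of its group for all 10 genes, LPAR2-/- mouse 5 the highest for 8, LPAR2-/- mice 4 and 5 were among the top 3 for all 10, and LPAR2-/- mouse 2 was among the bottom 3 for all 10. Among WT mice, mouse 4 was the highest for 8 genes and among the top 3 for all 10, and mouse 5 was the lowest for 6. The summed level of the 10 genes was 512, 438, 372, 291, 232, 172 and 101 CPM in LPAR2-/- mice 5, 4, 6, 1, 7, 2 and 3, and 353, 178, 168, 136, 121, 104 and 74.9 CPM in WT mice 4, 2, 3, 6, 1, 7 and 5. WT mouse 4 thus stood between LPAR2-/- mice 6 and 1, and LPAR2-/- mouse 3 stood between WT mice 7 and 5. Without LPAR2-/- mouse 5 or mouse 3, 22 and 23 of the 45 pairs in mice labeled LPAR2-/- passed in place of 36, with a median r of 0.87 in each case, and without WT mouse 4, 15 of 45 passed in WT mice with a median r of 0.56. Fits over 6 mice also have fewer orders to permute.

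**Figure D4:**
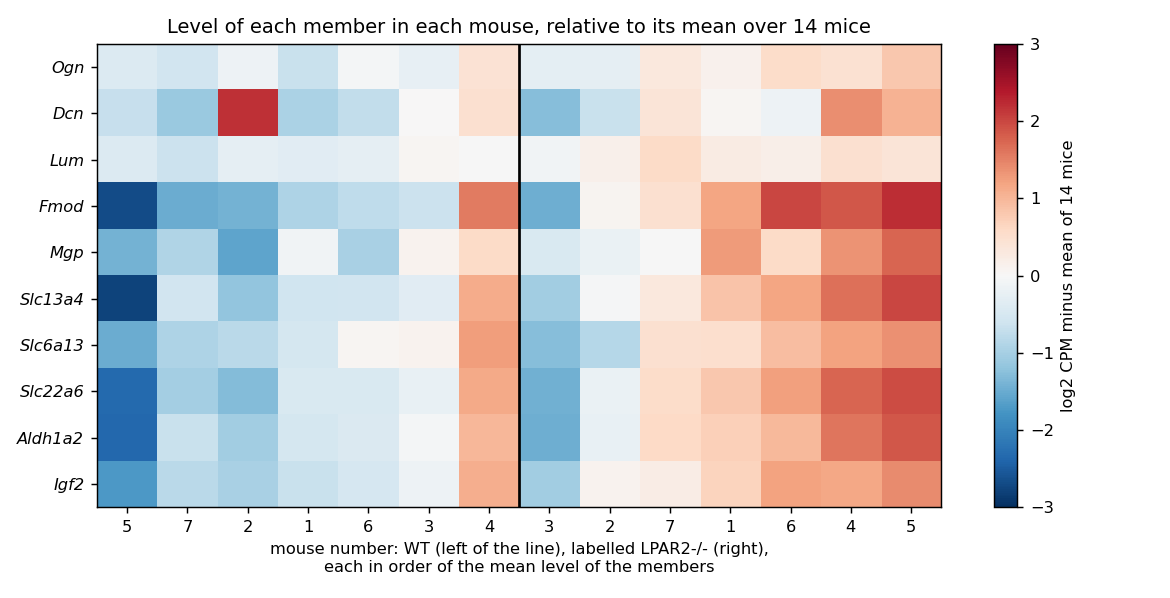
Log2 CPM of each gene (rows) in each mouse (columns) minus its mean over 14 mice, red above and blue below it, with WT mice left of the line and mice labeled LPAR2-/- right of it, each ordered by the mean level of the 10 genes. Whole columns change color together, from WT mouse 5 to WT mouse 4 and from LPAR2-/- mouse 3 to LPAR2-/- mouse 5, while the rows of *Lum* and *Ogn* stay pale.

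Other genes that follow the same mice were ranked by r with the mean of the 10 genes over 14 mice, genotype means removed, among 14887 genes. The most alike were *Colec12*, a scavenger receptor of the collectin family (r = 0.99), *Pcolce*, which enhances procollagen cleavage (0.98), and *Col1a2* and *Col1a1*, the chains of type I collagen (0.97 each). They were followed, at 0.97 each, by *Alx4*, a homeobox factor, *Slc6a12*, a betaine and GABA carrier, *Gjb2*, the gap junction protein connexin 26, *Slc6a20a*, a carrier of proline, *Vtn*, vitronectin, and *Anpep*, aminopeptidase N. The median over all genes was 0.01, with 65 genes (0.437%) above 0.9 and 216 (1.45%) above 0.8. The correlations of this ranking describe the same 14 libraries and carry no test.

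A list of 40 other genes of meningeal fibroblasts, also chosen with earlier results of these data known, moved with the 10. Of its 38 tested genes, 25 had an r above 0.8 with the mean of the 10, with a median of 0.86, and 35 had a higher fitted mean in mice labeled LPAR2-/- (7613 of all 14897 genes did), the median of these log2 fold changes being 0.70. *Angptl2*, a secreted angiopoietin-like protein, rose by 1.58 ± 0.390 SE on the log2 scale (edgeR adjusted p = 0.0278). *Bmp5*, a bone morphogenetic protein, rose by 1.28 ± 0.358 SE (edgeR adjusted p = 0.0424), a call that limma-voom did not make. *Thbs2*, the matrix protein thrombospondin 2, rose by 0.63 ± 0.131 SE (edgeR adjusted p = 0.0103) and *Slc16a11*, a monocarboxylate carrier, by 0.35 ± 0.0794 SE (edgeR adjusted p = 0.0165), and these 4 of 38 were edgeR's calls in the list, against 3.32% of all genes called higher. DESeq2 called the same 4 genes and also *Bmp6*, *Foxd1* and *Zic1*. The r of *Thbs2* and *Slc16a11* with the mean of the 10 was 0.39 and 0.45. Without WT mouse 4 the list had 13 calls, without LPAR2-/- mouse 3 it had 7, and with each of LPAR2-/- mice 1, 5 and 6 and WT mice 2, 3, 5 and 6 left out in turn it had 2. Its most abundant genes were *Ptgds*, prostaglandin D synthase (608 ± 417 and 283 ± 246 CPM, SD, n = 7 each, r = 0.96), *Fn1*, fibronectin (r = 0.62), and *Gjb6*, connexin 30 (r = 0.58).

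The genes next to the 10 in family or pathway split. Of 10 tested small leucine-rich proteoglycans other than the 4 above, edgeR called *Tsku* alone, against 3.32% of all genes called higher. *Tsku* rose by 0.95 ± 0.229 SE on the log2 scale (edgeR adjusted p = 0.0219), with an r of 0.48. *Bgn* (biglycan, r = 0.95) and *Omd* (osteomodulin, r = 0.91), singled out after their values were seen, followed the 10 most closely. Of 12 tested carriers of the same families, *Slc13a5*, a citrate carrier, rose by 0.49 ± 0.0895 SE (edgeR adjusted p = 0.00441) with an r of −0.20, while *Slc13a3*, also singled out after its values were seen, had an r of 0.97 and a log2 fold change of 0.91 ± 0.352 SE (edgeR adjusted p = 0.144). Of these 12 carriers 8 had an unadjusted edgeR p under 0.05 (22.4% of all genes), limma-voom called *Slc13a5* alone, and DESeq2 called *Slc6a6* and *Slc6a8* as well. The glial GABA transporter *Slc6a11*, named for comparison with *Slc6a13*, had an r of −0.16. Of 12 tested genes of insulin-like growth factor signaling, the receptor *Igf1r* fell by 0.18 on the log2 scale (edgeR adjusted p = 0.0363) and the adaptor *Irs2* by 0.31 (0.0257), against 3.46% of all genes called lower, and the binding protein *Igfbp2*, with an r of 0.94, had a log2 fold change of 0.91 ± 0.264 SE that did not pass in edgeR (0.0555) but was called by DESeq2 and limma-voom.

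Of 16 tested genes of retinoic acid synthesis, binding, breakdown and reception 0 passed in edgeR, with 5 at an unadjusted p under 0.05, which 22.4% of all genes reached in either direction, while DESeq2 called *Aldh1a1* and *Stra6* and limma-voom called *Aldh1a1*. The largest fitted differences were those of the binding proteins *Crabp2* with 1.20 ± 0.564 SE (edgeR adjusted p = 0.227, r = 0.85) and *Rbp4* with 0.87 ± 0.358 SE (0.164, r = 0.86), and of *Aldh1a1* with −0.59 ± 0.193 SE (0.0890, r = 0.68). Of 6 tested genes of mineral inhibition and Gla proteins 0 passed in edgeR, with 1 at an unadjusted p under 0.05, DESeq2 called *Enpp1* and limma-voom 0, and the largest differences were those of *Enpp1*, which makes pyrophosphate, with 0.65 ± 0.218 SE (edgeR adjusted p = 0.0911), *Spp1*, osteopontin, with 0.52 ± 0.697 SE (0.708) and *Ggcx*, the carboxylase that acts on Gla proteins, with −0.07 ± 0.0514 SE (0.477).

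Markers of other cells that could lie on or in the dissected piece were measured in the same mice. The 7 tested genes of vascular smooth muscle had a median r of 0.90 with the mean of the 10 (0.84 to 0.92), *Acta2*, *Myh11* and *Myl9* being the most abundant, and a summed level over the list of 8 of 53.7 to 231 CPM in mice labeled LPAR2-/- and 39.2 to 170 CPM in WT mice. The 6 tested genes of border macrophages had a median r of 0.79, *Mrc1*, *F13a1* and *Cd163* being the most abundant, and a summed level over the list of 7 of 9.32 to 28.6 and 4.06 to 17.7 CPM. The median log2 fold changes were 0.85 and 0.82, and 0 genes of either list passed in edgeR, with 4 of 7 and 2 of 6 at an unadjusted p under 0.05 in the higher direction (11.3% of all genes). DESeq2 called 0 genes of the first list and *Mrc1* of the second, and limma-voom 0 of both. Their part in the values of the 10 genes was not tested. The 10 genes of pericytes (*Vtn*, *Pdgfrb* and *Rgs5* the most abundant) had a median r of 0.46 and the 12 of brain endothelium (*Slc2a1*, *Slco1a4* and *Flt1*) 0.47. The mean of the pericyte list had an r of 0.87 with the 10 genes in mice labeled LPAR2-/- and 0.88 in WT mice, and that of the endothelial list 0.60 and 0.94, next to 0.92 and 0.93 for smooth muscle. Their part was not tested either. Of these lists 0 genes passed in edgeR or limma-voom, and DESeq2 called *Slco1a4*. In edgeR 3 pericyte genes and 1 endothelial gene had an unadjusted p under 0.05, which 22.4% of all genes reached in either direction.

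The choroid plexus expresses several of the same carriers and *Igf2*. Of 15 genes of its epithelium 7 were tested, with a median r of −0.16 to the mean of the 10, and the list mean had an r of −0.19 in mice labeled LPAR2-/- and 0.48 in WT mice. All 7 had a higher fitted mean in mice labeled LPAR2-/-, the median of their log2 fold changes being 0.55, and the part of this list in the values of the 10 genes was not tested. In edgeR and limma-voom 0 of the 7 passed, with 4 at an unadjusted p under 0.05 in edgeR, all higher (11.3% of all genes). DESeq2 called *Kcnj13*, and also *Clic6*, which had too few counts for the edgeR test. *Ttr*, its most abundant product, was at 242 CPM in LPAR2-/- mouse 2 and at 0.945 to 18.4 CPM in the other 13 mice, and *Kl* and *Sostdc1* had an r of 0.19 and −0.46. LPAR2-/- mouse 2 was among the bottom 3 of its group for all 10 genes. The list's summed level was 32.3 to 60.3 CPM in the other mice labeled LPAR2-/- and 33.4 to 40.9 CPM in WT mice, and its *Kcnj13*, singled out after its values were seen, had an r of 0.79 at levels of at most 2.89 CPM.

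For genes of brain cells the median r with the mean of the 10 was 0.01 for 10 genes of hippocampal neurons (*C1ql2*, *Tspan18* and *Neurod6* the most abundant), 0.07 for 8 of astrocytes (*Slc1a2*, *Slc1a3* and *Aldoc*), −0.19 for 4 tested genes of ependyma (*Rarres2*, *Foxj1* and *Ak7*) and −0.28 for 7 of oligodendrocytes (*Mbp* and *Cnp* among the most abundant). In edgeR and limma-voom 0 genes of these 4 lists passed, and DESeq2 called *Rarres2*. In edgeR 1 neuronal and 1 ependymal gene had an unadjusted p under 0.05, which 22.4% of all genes reached in either direction. Within a genotype the list means differed: that of astrocytes had an r of 0.04 in mice labeled LPAR2-/- and 0.74 in WT mice, and that of oligodendrocytes −0.55 and 0.42. This difference between the genotypes was not tested. Whether the pieces of tissue differed in their borders was not recorded in the labels. Of 5 genes of red blood cells, 4 hemoglobin genes were listed at 0 in all 14 libraries. The exons of each overlap those of another hemoglobin gene name on the same strand in the count table, and featureCounts by default leaves out reads that fit more than 1 gene, so these zeros give no level. The remaining gene, *Alas2*, had 17 to 73 counts per library and an r of 0.27.

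**Figure D5:**
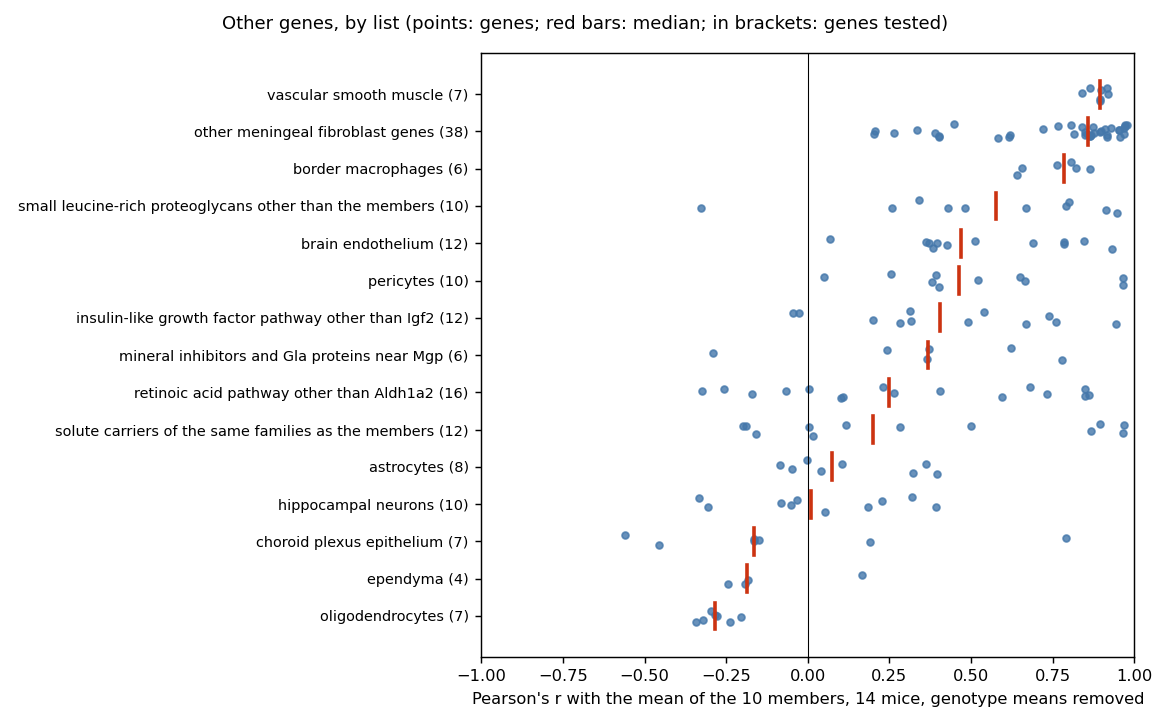
Pearson's r of each tested gene with the mean of the 10 genes over 14 mice, genotype means removed, in lists of meningeal, pathway and cell type genes, with the median of each list as a red bar. Vascular smooth muscle (median 0.90), other meningeal fibroblast genes (0.86) and border macrophages (0.79) lie to the right, neurons (0.01) near 0, and oligodendrocytes (−0.28) left of it.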

How the data were processed

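The authors sequenced hippocampal RNA of 14 mice (7 per label, 1 library each) depleted of ribosomal RNA. Per the submitters' processing notes and the file headers, cutadapt 1.18 trimmed the reads, STAR placed them on mm10 and featureCounts 1.6.3 assigned reverse-strand reads to exons, and the deposited counts are raw whole numbers per gene. *Ogn* overlaps *Cenpp* and *Igf2* overlaps *Igf2os* on the opposite strand. A deposited table of normalized values (DESeq2 1.22.2) was not used, because its decimal marks are lost. All 14 columns of counts were matched to a sample.

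From the counts, R 4.3.3 with edgeR 4.0.16 (filterByExpr, TMM, robust quasi-likelihood test without covariates) tested 14897 genes at a Benjamini-Hochberg adjusted p under 0.05. CPM used TMM library sizes, and log2 CPM a prior count of 2. Labels do not say that mice of a genotype came from separate litters, so p-values measure the spread between these mice. Correlations and exact permutation tests used Python 3.11.15 with numpy 2.4.6. Procedures were tested on simulated data, where a larger share of calls was false with DESeq2 than with edgeR or limma-voom. In 42 pairs of libraries of a genotype the chi-square divided by its degrees of freedom was at least 3.35, so that none were copies. Promoter sequences came from RefSeq.

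The genes named were *Lpar2*, the 10 genes, in each pathway list those past the threshold or else the 3 with the largest fold change, in each cell list the 3 with the highest mean CPM, and the 10 genes most like the mean of the 10. Genes named outside this rule, such as those called by 1 tool alone, were chosen after their values were seen. A few genes that this rule would name are not reported here. The members and lists were chosen with earlier results of these data known. Alternatives were DESeq2 1.42.0, limma-voom (limma 3.58.1), DESeq2 size factors, upper quartile scaling, no filter, at least 10 counts in every library, no robust dispersion, a replicate block by mouse number, leaving out each mouse, Spearman's rho, a prior count of 0.5 and total counts.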

Additional observations from a re-analysis of the deposited data

Results flagged for a closer look

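On the CPM scale, in 7 of the 20 combinations of gene and genotype, 1 mouse lay so far from the other 6 that its gap to the nearest of them exceeded Dixon's 95% limit for 7 samples, where chance alone gives about 1 in 20. All 7 were in WT mice and at the upper end. WT mouse 4 stood apart for *Fmod* (41.1 CPM), *Slc13a4* (23.3 CPM), *Slc6a13* (23.6 CPM), *Slc22a6* (13.4 CPM), *Aldh1a2* (14.5 CPM) and *Igf2* (140.3 CPM), which are genes that go together across mice and so are not 6 separate signs. WT mouse 2 stood apart for *Dcn* (84.9 CPM) and for none of the other 9 genes. On the log2 CPM scale, an alternative chosen after seeing the data, 0 of the 20 combinations passed the limit, with gaps of 0.32 to 0.52 of the range for these 7, so that all 7 depend on the scale.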

How the results depend on the processing

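Under 22 alternatives the fold changes of the 9 genes other than *Dcn* were above 0 in 198 of 198 fits. *Dcn* changed direction with limma-voom (0.17) and with a replicate block by mouse number (0.29), and ranged from −0.33 to 0.74 with single mice left out. The count of the 10 genes past the threshold was 1 except with the replicate block, where it was 0 (*Lum* 0.54, adjusted p = 0.0534), and with single mice left out, where it was 1 to 4. Other meningeal fibroblast genes past the threshold numbered 4, 7 with DESeq2, 3 with limma-voom, the stricter count filter or the replicate block, and 2 to 13 with single mice left out; *Bmp5*, *Tsku* and *Igf1r* lost their calls with the replicate block. Calls over all genes fell from 1009 to 586 with the replicate block and ranged from 567 to 1385 without single mice. Mouse numbers do not pair the mice: after removal of genotype means, same-numbered mice correlated between −0.33 and 0.31, 3 of 7 above 0.1. Upper quartile scaling gave 616 higher and 377 lower calls in place of 494 and 515. Of 90 pairs, 57 passed, 48 with Spearman's rho and 42 to 63 with single mice left out. limma on the deposited normalized values was not run. In WT mice counting error alone gave the 10 genes a coefficient of variation of 3.60% to 13.1%, below the measured 16.7% to 122%. For *Lum* it was 8.43% against a measured 16.7%.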
